A study of Saccharomyces cerevisiae with 4 samples.

Results

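Transcripts of the 6 genes that make up the Met4 regulator system of sulfur metabolism were followed in 4 libraries of budding yeast, Saccharomyces cerevisiae. The genes were chosen by name, by a rule that uses no measured value, though with earlier results of these data known, and are MET4 (YNL103W), MET28 (YIR017C), MET30 (YIL046W), MET31 (YPL038W), MET32 (YDR253C) and CBF1 (YJR060W). All 6 are among the 6678 open reading frames (ORFs) of the table. Levels are RPKM, reads per kilobase of ORF and per unit of library size, so that levels of different genes can be set side by side. Total RNA came from MATα GAL cells of strain SEY6210. The strain carries the allele pair leu2-3 and leu2-112, the deletions his3-∆200, trp1-∆901 and suc2-∆9, and also ura3-52 and lys2-801, with no met allele listed. The mutant, JMY047, is the same strain with pho23∆::HIS5. It therefore lacks Pho23, which belongs to the histone deacetylase complex Rpd3L, and carries a HIS5 marker that the wild type lacks. Each genotype was sampled growing in rich medium (YPD, mid-log phase) and after a further 2 h in SD-N, a medium without nitrogen. No source used here gives the sulfur compounds of SD-N, and nitrogen loss cannot be told apart from the other differences between the media. In the R64 assembly the coding regions lie at chrXIV:427735-429753 for MET4 (plus strand), chrIX:383556-384119 for MET28 (minus), chrIX:268651-270573 for MET30 (plus), chrXVI:480535-481068 for MET31 (plus), chrIV:963990-964565 for MET32 (minus) and chrX:548759-549814 for CBF1 (plus). The series asks how the deletion and starvation bear on transcript levels. Each of the 4 groups is 1 library. No difference below has a replicate check, and no test across cultures was made.

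Met4 is a leucine-zipper transcription activator that cannot bind DNA by itself. It is brought to the promoters of sulfur genes by Cbf1, a helix-loop-helix protein that binds the letters CACGTG, together with the leucine-zipper cofactor Met28, or by the related zinc-finger proteins Met31 and Met32, which bind AAACTGTGG. Met30 is the F-box protein with which an SCF ubiquitin ligase modifies and restrains Met4 when sulfur amino acids are plentiful. Cbf1 also binds centromeres and takes part in chromosome segregation.

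The DNA upstream of the start codons is shown first, since the letters read by Cbf1 and by Met31 and Met32 divide the 6 genes. The 500 bases before each start codon were searched on both strands for CACGTG and AAACTGTGG in the R64 assembly. Both are present upstream of MET28, MET30 and MET32. CACGTG alone is present upstream of MET4 and CBF1, and neither upstream of MET31. Among 6000 such windows of the genome, 6.23% hold CACGTG, 0.85% hold AAACTGTGG and 0.233%, or 14 windows, hold both. The stretches below run from 20 bases before the first match to 20 bases after the last, 5′ to 3′ on the strand of the gene, with the matches in capitals. In all 3 genes with both, AAACTGTGG lies on the opposite strand and reads CCACAGTTT. The genomic positions are chrIX:384244-384358 (minus strand) for MET28, chrIX:268454-268517 (plus) for MET30, chrIV:964863-964963 (minus) for MET32, chrXIV:427385-427430 (plus) for MET4 and chrX:548571-548616 (plus) for CBF1.
MET28: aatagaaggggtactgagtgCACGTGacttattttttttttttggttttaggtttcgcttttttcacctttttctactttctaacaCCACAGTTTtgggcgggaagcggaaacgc
MET30: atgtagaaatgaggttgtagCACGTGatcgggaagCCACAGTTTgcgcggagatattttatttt
MET32: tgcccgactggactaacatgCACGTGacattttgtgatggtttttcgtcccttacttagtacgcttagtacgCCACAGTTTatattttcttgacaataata
MET4: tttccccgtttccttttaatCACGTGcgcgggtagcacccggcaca
CBF1: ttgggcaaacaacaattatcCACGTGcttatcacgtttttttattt

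CACGTG comes first in all 3 stretches that hold both motifs, 60 bases before CCACAGTTT at MET28, 9 bases before it at MET30 and 46 bases before it at MET32. Counted from the start codon, CACGTG begins at -219 for MET28, -177 for MET30, -378 for MET32, -330 for MET4 and -168 for CBF1. The first bases of the MET30 stretch also belong to a small ORF, YIL046W-A, which ends at position 268473. The same windows were searched for TGACTC, the core read by Gcn4, the activator of amino acid biosynthesis genes. It is present upstream of MET28, at -102, and of MET31, at -471, and in 12.7% of all windows. GATAAG, read by the GATA factors of nitrogen control, was found upstream of MET4, MET30 and CBF1, against 22.8% of all windows. At CBF1 it directly follows CACGTG, on the opposite strand, at -162. The core read by Ume6, a repressor that recruits Rpd3L, is GCCGCC, and was found upstream of none of the 6, against 9.57% of all windows. A match describes letters in this window and does not show binding, nor does a missing match show its absence.

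**Figure D1:**
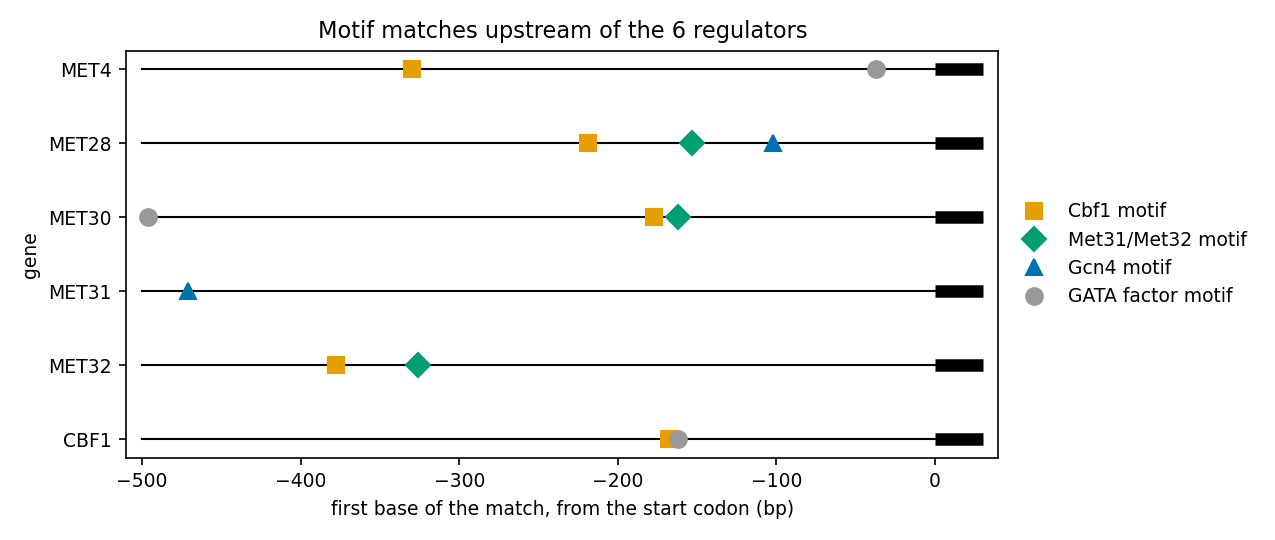
Matches to 4 motifs in the 500 bases before the start codons of the 6 regulator genes, with distance from the start codon in bp on the horizontal axis and the coding start as a thick bar. Squares (Cbf1) and diamonds (Met31/Met32) occur together upstream of MET28, MET30 and MET32, from -378 to -153.

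The libraries had an estimated 19700000 to 27500000 reads, a rough figure read from the step between the lowest values. PHO23, the deleted gene, stood at an RPKM of 12.3 and 23.4 in growing and starved wild type, and at 0.13 and 0.0546 in the mutant. All 4 α-specific marker genes were present in every library, with a summed RPKM of 8081 and 19169 in growing and starved wild type and 2148 and 2980 in the mutant. The 7 a-specific genes, which α cells normally keep silent, summed to 58.1 and 17.1 in growing wild type and mutant, and to 2883 and 647 after starvation, with none at 0. Both lists therefore moved with condition and genotype. Their part in the results below was not tested.

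In growing wild type the DNA-binding protein gene MET31 had the highest level of the 6, and MET28 was barely detected. MET31 stood at an RPKM of 59.0, MET4 at 41.1, CBF1 at 29.97, MET32 at 19.9, MET30 at 16.0 and MET28 at 0.778. The growing mutant gave the same order, with 60.2 for MET31, 48.6 for MET4, 31.0 for CBF1, 24.1 for MET32, 23.7 for MET30 and 1.29 for MET28. MET32 and MET30 differed there by less than their counting error, with a ratio of 1.01 (95% counting interval 0.902 to 1.14). The other neighbours in these orders lay beyond it. CBF1 lay close to the median of all ORFs, which was 29.9 and 33.3 in these libraries. For MET28, only 2.47% and 5.32% of ORFs had a lower level in growing wild type and mutant. Its levels correspond to about 10.05 and 19.9 estimated reads. Intervals rest on such estimated reads and cover counting error only.

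After starvation MET32 led and CBF1 was last. In starved wild type the RPKM was 135 for MET32, 113 for MET4, 88.0 for MET31, 86.6 for MET28, 77.9 for MET30 and 49.6 for CBF1. The starved mutant again had the same order, with 173 for MET32, 105 for MET4, 91.6 for MET31, 83.9 for MET28, 76.0 for MET30 and 40.2 for CBF1. The ratio of MET31 to MET28 was 1.02 (0.928 to 1.11) in starved wild type, within counting error, and 1.09 (1.001 to 1.19) in the starved mutant, at its edge. Every gene was higher in both starved libraries than in both growing ones. For CBF1 the margin was small, from 31.0 in the growing mutant to 40.2 in the starved mutant, and the median of all ORFs was itself higher in the starved libraries, at 45.7 and 44.6.

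**Figure D2:**
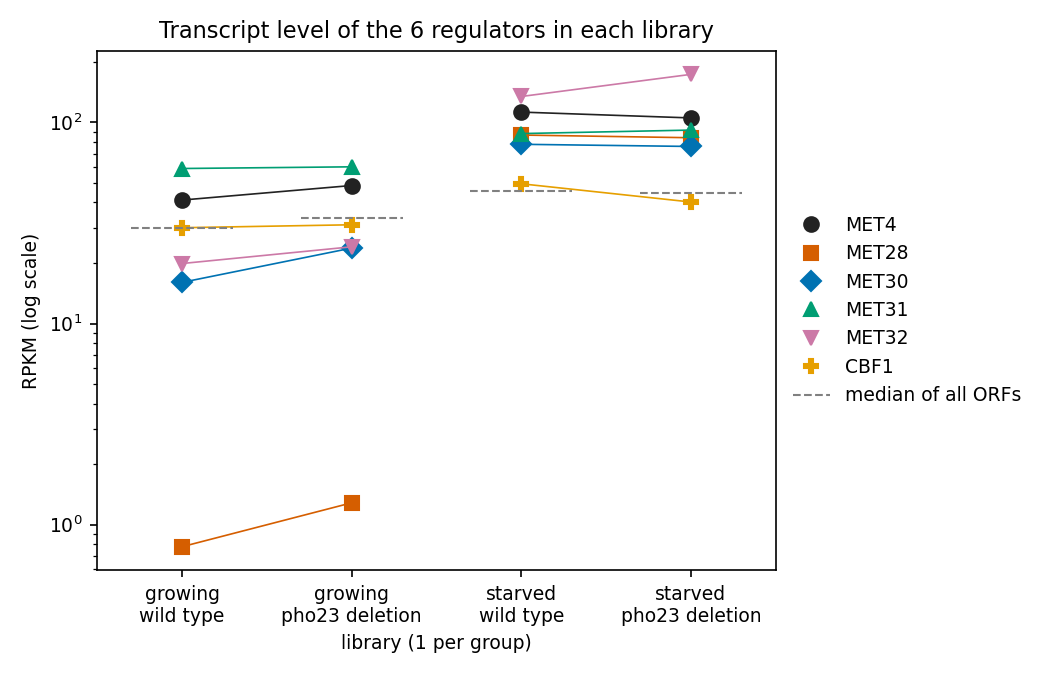
RPKM of the 6 regulator genes in each of the 4 libraries, on a log axis, with 1 point per gene and library and lines joining the genotypes within a condition. Dashed lines mark the median of all ORFs. MET28 goes from 0.778 and 1.29 in growing cells to 86.6 and 83.9 after starvation, and MET32 from below MET31, MET4 and CBF1 to the top.

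The largest starvation difference was that of MET28. Its RPKM ratio of starved to growing cells was 111 in wild type (95% counting interval 60.6 to 234) and 65.3 in the mutant (41.9 to 107). Folds from here on are differences of log2(RPKM + 1), a scale that shrinks changes of low genes. The 2-fold rule counts an ORF where its larger RPKM of the pair compared reaches 10. On this scale MET28 was at 5.62 in wild type and 5.22 in the mutant, ranking 28 among 5956 ORFs and 33 among 5863. With a pseudocount of 5 its values were 3.99 and 3.82, and with 0.1 they were 6.63 and 5.92. MET28 passed the minimum through the starved libraries alone.

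MET32, encoding a zinc-finger partner of Met4, followed with log2 folds of 2.70 in wild type and 2.80 in the mutant. Its RPKM ratios were 6.77 (5.94 to 7.76) and 7.20 (6.46 to 8.05). MET30, whose product restrains Met4, was at 2.21 and 1.64, with ratios of 4.86 (4.48 to 5.28) and 3.20 (2.997 to 3.42). MET4 itself had log2 folds of 1.43 and 1.10. MET31 was at 0.57 and 0.60, and CBF1 at 0.71 and 0.37. The 3 genes with both motifs upstream thus had the 3 largest folds in each genotype, an arrangement seen after these values were known and not tested.

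In each genotype 4 of the 6 reached 2-fold higher levels with starvation, namely MET28, MET32, MET30 and MET4, and none was 2-fold lower. Across all ORFs, 32.7% were 2-fold higher and 13.3% lower in wild type, and 22.4% and 8.77% in the mutant. The median log2 fold of the 6 was 1.82 in wild type and 1.37 in the mutant, beside 0.52 and 0.35 for all 6678 ORFs. MET31 and CBF1 therefore lay near the median of the table. Since that median is far from 0, the scaling matters. Scaling by median of ratios moved the all-ORF median to 0.04 in both genotypes and the ORFs counted from 1950 higher and 795 lower to 1131 and 1254 in wild type, and from 1311 and 514 to 838 and 926 in the mutant. With that scaling 3 of the 6 regulators were at 2-fold in each genotype, with 19.1% and 14.4% of ORFs higher. MET28 was then at 5.24 and 4.95, MET32 at 2.18 and 2.47, and MET30 at 1.70 and 1.31. MET4 was at 0.91 and 0.77, MET31 at 0.04 and 0.27 and CBF1 at 0.19 and 0.04.

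**Figure D3:**
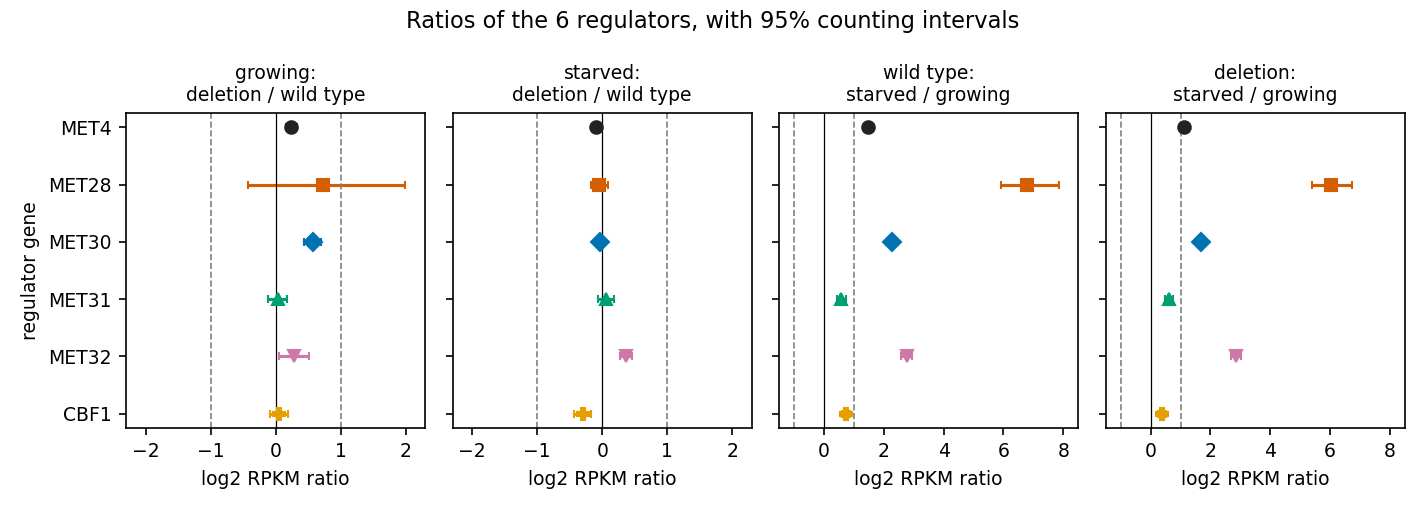
Log2 RPKM ratios of the 6 regulator genes in the 4 comparisons, with 95% counting intervals as bars and dashed lines at 2-fold. The genotype panels hold every point within 2-fold, and in the starvation panels MET28, at ratios of 111 and 65.3, stands far from the other genes.

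Ratios of 2 genes within a library do not depend on how libraries are scaled. They show how the proportions of the transcripts differed, and proteins were not measured. MET31 exceeded its relative MET32 by ratios of 2.97 and 2.50 in growing wild type and mutant. After starvation the ratio was 0.654 and 0.528, so that MET32 was the higher of these zinc-finger genes in both starved libraries. The transcript of the inhibitor MET30 stood at 0.390 and 0.489 of that of MET4 in growing wild type and mutant, and at 0.692 and 0.721 after starvation. MET28 stood at 0.0189 and 0.0265 of MET4 in growing cells and at 0.769 and 0.797 after starvation. The growing values rest on about 10.05 and 19.9 estimated reads of MET28. CBF1 moved the other way relative to MET4, from 0.729 and 0.638 to 0.440 and 0.382.

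Loss of Pho23 was accompanied by small differences in these genes. None of the 6 was at 2-fold between genotypes in either condition, where 6.03% of 5439 ORFs in growing cells and 9.44% of 5976 in starved cells were, in either direction. With so few genes, none at 2-fold is near these shares. MET28 was under the minimum in growing cells. The largest growing log2 fold was that of MET30 at 0.54, with a ratio of deletion to wild type of 1.48 (1.35 to 1.63). MET28 was at 0.36, but its ratio of 1.65 had a counting interval of 0.745 to 3.99, which includes 1. MET32 was at 0.26, MET4 at 0.24, CBF1 at 0.05 and MET31 at 0.03. The last 2 lay below 0 with scaling by median of ratios or upper quartile. The growing median of the 6 was 0.25, beside 0.05 for all ORFs.

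In starved cells the genotype folds of MET4, MET28 and MET30 were nearer to 0 than in growing cells, and those of MET31, MET32 and CBF1 farther from it. MET32 was at 0.36, with a ratio of 1.29 (1.21 to 1.38), and CBF1 at -0.29, with a ratio of 0.812 (0.741 to 0.887). MET31 was at 0.06, MET30 and MET28 both at -0.04 and MET4 at -0.10. Scaling by median of ratios put MET4, MET28 and MET30 at 0.01, 0.06 and 0.07, and scaling to equal sums put MET31 at -0.09. Of the 6, MET32 had the same sign of fold in both conditions under every scaling tried.

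The starvation fold of the mutant minus that of wild type was -0.57 for MET30, -0.41 for MET28, -0.34 for CBF1, -0.33 for MET4, 0.03 for MET31 and 0.10 for MET32. Over 6034 ORFs the median of this difference was -0.15, and 27.1% of ORFs had one larger in size than MET30. The difference for MET28 rests on about 10.05 and 19.9 growing reads and was -0.16 with a pseudocount of 5. With equal sums MET31 and MET32 were at -0.12 and -0.05.

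Most genes of sulfur metabolism, many of them known targets of Met4, had higher levels after starvation in both genotypes. Of 41 measured genes in 4 lists of sulfur metabolism, 28 reached 2-fold higher in starved wild type and 1 was lower. In the mutant these counts were 31 and 0, and the medians were 2.35 and 2.46. Across all ORFs, 32.7% and 22.4% were 2-fold higher. In wild type SUL1, SUL2, MET8, MET2, STR3, YCT1, SOA1, JLP1, SEO1 and PDC6 passed the minimum through the starved library alone. In the mutant SUL1, SUL2, SOA1, JLP1, SEO1 and PDC6 did so. Such genes could be counted only as higher. Every one of the 10 genes for sulfate uptake and assimilation was at 2-fold in each genotype, with list medians of 4.38 and 4.60. SUL1, a high-affinity sulfate permease, had an RPKM of 6.85 and 5.30 in growing wild type and mutant, and of 822 and 709 after starvation. In wild type its log2 fold was 6.71, beside 4.99 for MET16, which reduces activated sulfate, and 4.92 for MET10, a sulfite reductase subunit. The MET5 subunit was at 4.73.

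Synthesis of homocysteine, methionine and S-adenosylmethionine (SAM) was split. In wild type 5 of 11 genes were 2-fold higher and 1 lower, with a median of 0.86, and in the mutant 6 and 0, with a median of 1.63. The shares of all ORFs that were higher were 32.7% and 22.4%, and the wild-type count is not far from its share. MET2 was at 4.11, MET6, the methionine synthase, at 3.90, MET17, which makes homocysteine from sulfide, at 3.81 and MET13 at 3.56 in wild type. SAH1, which breaks down S-adenosylhomocysteine, was at -1.35. Of the 10 genes for cysteine and glutathione, 4 and 5 were higher, with medians of 0.88 and 0.97 and no gene lower. Here too the wild-type count is near the share of 32.7% over all ORFs. STR3 and STR2 of transsulfuration were at 4.86 and 2.94, ECM38, which starts glutathione breakdown, at 3.25 and GSH1, which starts its synthesis, at 1.28. Of 10 genes for uptake and use of other sulfur compounds, 9 and 10 were higher, with medians of 2.46 and 2.85. PDC6, a minor pyruvate decarboxylase whose protein is poor in sulfur, was at an RPKM of 0.540 and 0.495 in growing wild type and mutant and at 124 in both starved libraries. YCT1, a cysteine transporter, was at 4.14 and SEO1 at 3.94 in wild type. MUP1, the high-affinity methionine permease, was the exception at -0.20 in wild type, against 1.68 in the mutant.

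**Figure D4:**
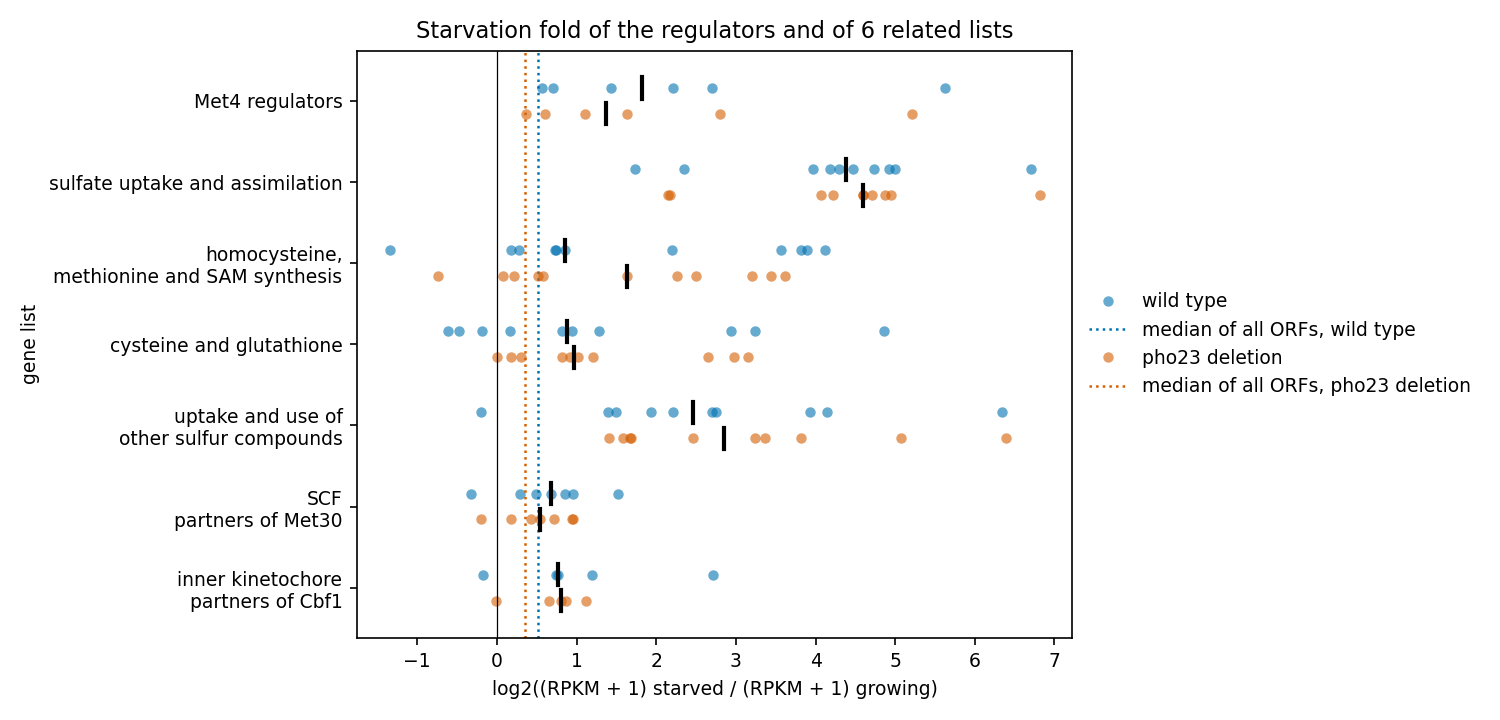
Starvation log2 folds of the 6 regulators and of 6 related gene lists, with 1 point per gene, wild type in blue and the pho23 deletion in orange, black bars at the list medians and dotted lines at the medians of all ORFs (0.52 and 0.35). The sulfate genes have medians of 4.38 and 4.60, and the SCF genes medians of 0.67 and 0.54.

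The partners of Met30 and Cbf1 outside sulfur metabolism had smaller starvation folds, in the median, than the regulators. Among 7 SCF genes, which include the scaffold CDC53 and the adaptor SKP1, the starvation medians were 0.67 in wild type and 0.54 in the mutant, with 1 gene and 0 genes at 2-fold. The gene was HRT1, the RING subunit, at 1.52 in wild type and 0.94 in the mutant. CDC53 was at 0.86 and 0.43, and SKP1 at 0.50 and 0.72. The list also holds RUB1, a ubiquitin-like modifier, and CDC4 and GRR1, which encode other F-box proteins and not partners of Met30. MET30 had a larger starvation fold than any of these 7 genes. The 5 inner kinetochore genes had medians of 0.77 and 0.81, with 2 and 1 at 2-fold. With so few genes these kinetochore counts are near the shares of all ORFs 2-fold higher, 32.7% and 22.4%. CTF13 was at 2.71 and 1.12, and MIF2, the centromere protein, at 1.19 and 0.81. CTF13 passed the minimum through the starved libraries alone. CBF1 itself, at 0.71 and 0.37, lay below the kinetochore medians in both genotypes. With equal sums, which moved the all-ORF medians to 0.82 and 0.50, the SCF list had 3 and 2 genes at 2-fold and the kinetochore list 4 and 2.

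Fewer of these genes were at 2-fold between genotypes than with starvation. In growing cells 5 of the 41 were higher in the mutant and none lower, with a median of 0.19, where 3.95% of all ORFs that passed the minimum were higher. That none was lower may depend on scaling, since CYS3 was at -0.94, just short of 2-fold lower. With median of ratios or upper quartile, 3 cysteine and glutathione genes were at 2-fold in either direction, against 2 without rescaling. Of the 41, only 8 of 10 sulfate genes and 6 of 10 for other sulfur compounds passed that minimum, with all of the other lists. The rest could not be counted. In starved cells 3 were higher and none lower, with a median of 0.21, where 5.30% of ORFs were higher. STR3 was at 2.37 in growing cells and 0.50 in starved cells. MET6, at 1.796, had RPKM values of 129 and 450 in growing wild type and mutant, and MET13 was at 1.02, under 2-fold with a pseudocount of 5 or with scaling by median of ratios or upper quartile. DUG3, part of a glutathione-degrading enzyme, was at 1.28 in growing and 1.16 in starved cells, and its partner DUG2 at 0.64 and 1.42. MUP3, a low-affinity methionine permease, was at 1.57 and 0.53, and MUP1 at 0.55 and 2.43.

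Other ORFs with both motifs upstream resembled the 3 regulators in direction. Apart from the regulators there were 11. Of these, 9 reached 2-fold higher in starved wild type and 10 did so in the mutant, none lower, with medians of 3.02 and 2.27. These counts were not repeated with other scaling, and IES5 was at only 1.14 in the mutant. Among the 354 measured ORFs with CACGTG alone the medians were 0.50 and 0.37, among the 35 with AAACTGTGG alone 1.02 and 0.82, and among the 5557 with neither 0.53 and 0.36. The shares 2-fold higher, of ORFs that passed the minimum, were 34.1% and 23.3%, 51.5% and 45.5%, and 32.2% and 21.9% in that order. Of the 11, CYS4, encoding the first enzyme from homocysteine to cysteine, was at -0.19 and 0.18, and SAM2, a SAM synthetase, at 0.86 and 1.63. RAD59, a recombination protein gene, was at 4.72 and 3.86. RAD59 and YAP5 passed the minimum in wild type through the starved library alone, and YAP5 did so in the mutant too. MET3, MET6, SAM2, CYS4 and MUP3 of the 11 are also among the 41 sulfur genes counted above. Of the 11, CHL4 and YAP5 face away from MET32 and MET28, and both of their matches are the copies already shown for those regulators. Among the other 9, 7 were 2-fold higher in wild type and 8 in the mutant, with medians of 3.02 and 2.27. MET6 and IES5, and CYS4 and GTO1, face away from each other across overlapping windows, and these ORFs are not independent.

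MET28, MET32 and MET4 each face away from a neighbour. MET28 lies 489 bp from YAP5, a leucine-zipper factor of the iron response, which was at an RPKM of 5.07 and 7.91 in growing wild type and mutant and at 55.6 and 54.0 after starvation. MET32 lies 547 bp from CHL4, a kinetochore gene, at 12.6 and 20.05 growing and 53.3 and 74.4 starved. MET4 lies 980 bp from LEU4, of leucine synthesis, which was at 232 and 283 growing and 1529 and 1406 starved. All 3 neighbours were above 2-fold in both genotypes, with log2 starvation folds of 3.22 and 2.63 for YAP5, 2.71 and 2.31 for LEU4 and 1.998 and 1.84 for CHL4. None of the 6 genes overlaps another protein-coding gene of the RefSeq table.

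The ORF YIR017W-A is named for the strand opposite to MET28 and has no position in that table. Its RPKM was 1.88 and 2.40 in growing wild type and mutant and 151 and 146 after starvation, or 2.41, 1.87, 1.75 and 1.74 of MET28 in the order of the libraries. Whether counting used strand is stated in no source used here, and reads of the 2 ORFs cannot be told apart if they overlap. YNL103W-A, whose name derives from that of the MET4 ORF, likewise has no position in the table. It was at 49.3 and 55.5 in growing wild type and mutant and at 340 and 315 after starvation, above MET4 in every library, with log2 starvation folds of 2.76 and 2.48. Its overlap with MET4 was not tested.

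The likeness of each gene to every other ORF was measured as the distance between log2(RPKM + 1) values, centred on their mean, over the 4 libraries. Among 6034 ORFs, YIR017W-A was second nearest to MET28 at 0.18, between YCL048W-A at 0.17 and TMA10, a stress-induced ribosome-associated protein gene, at 0.19. The nearest to MET32 were YMR196W (0.08), RIM8 (0.12) and YKL202W (0.15). To MET30 they were MLO127 (0.02), ATG20 (0.06) and HUL5 (0.11), and to MET4 COS5 (0.03), YOR105W (0.04) and YDR262W (0.06). MET31 was nearest to YOR331C (0.01), VMA4 (0.02) and BOL1 (0.02), and CBF1 to LDB16 (0.02), GIP3 (0.02) and QRI7 (0.04). YOR331C and VMA4, which is YOR332W, have adjacent ORF names and near-equal levels, such as 265 and 270 in growing wild type. Whether they share reads was not tested. COS5 belongs to a near-identical family and is uncertain. None of the 6 had another of the 6 among its 3 nearest ORFs. The closest of their own were MET31 and CBF1, at 0.25, and MET28 was 2.69 from the nearest, MET32. With 4 libraries such distances are a description only.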

How the data were processed

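Total RNA was sequenced from 4 libraries, 1 per group. Per the submitters' processing notes, CASAVA 1.8.2 and Bowtie2 2.1.0 were used with the sacCer3 build. The authors deposited 1 table of RPKM, with 1 value for each ORF and library. How reads were counted, by which annotation and with what strand setting is not given in the sources used here. Symbols, positions and sequences came from RefSeq R64, the assembly that sacCer3 denotes, whose table holds 5997 of the 6678 ORFs.

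Folds were differences of log2(RPKM + 1), without rescaling, and the 2-fold rule took ORFs whose larger RPKM of a pair reached 10. An additive fit over the 4 libraries was not run. A single read was taken as the step in RPKM times length in kb among the lowest values below 0.06. The step gave 22900000, 27500000, 19700000 and 21800000 reads for growing wild type, growing deletion, starved wild type and starved deletion. Of values below 100 reads, 30.8% to 45.6% then lay within 0.1 of a whole number, against 20.2% to 22.0% with a step 3% off. The step had been chosen for the best whole-number fit among low values of the same libraries. The comparison is therefore no independent check, and the reads remain rough. Intervals (95%, Clopper-Pearson) cover counting error only, since reads without molecular identifiers are not independent molecules. Summed RPKM ranged from 883544 to 1101480.

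Members, gene lists and motifs were chosen with earlier results of these data known. The text names the 6 members, up to 4 genes of each list with the largest fold, single exceptions chosen after their values were seen, the 3 ORFs nearest to each member, neighbouring ORFs and PHO23. Sulfur genes that passed the minimum through a starved library alone are named too. BDS1 was not analysed here. Alternatives were pseudocounts of 0.1 and 5, no minimum, a minimum RPKM of 30, and scaling by median of ratios, equal sums or upper quartile. Python 3.11.15, pandas 2.3.3, NumPy 2.4.6 and SciPy 1.17.1 were used. The code of the fold rule was run on simulated data with planted changes well above 2-fold and counting noise only. That run says nothing of variation between cultures.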

Additional observations from a re-analysis of the deposited data

Results flagged for a closer look

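For 4 of the regulators the genotype difference lay on opposite sides of 0 in growing and starved cells. MET30 was at 0.54 growing and -0.04 starved (a difference of -0.57), MET28 at 0.36 and -0.04 (-0.41), CBF1 at 0.05 and -0.29 (-0.34) and MET4 at 0.24 and -0.10 (-0.33). Each is 1 library against 1, all are under 2-fold, and the differences were not tested. The opposite signs depend on scaling. With median of ratios none of the 4 has them, MET30 being at 0.45 and 0.07, MET28 at 0.34 and 0.06, MET4 at 0.14 and 0.01 and CBF1 at -0.04 and -0.19. With upper quartile CBF1 lacks them too, at -0.01 and -0.26.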

How the results depend on the processing

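Of 28 recounts of regulators at 2-fold (4 comparisons under 7 alternatives), all were within 1.5 times the count as reported. They were 0 in every genotype recount, 3 to 5 in wild-type starvation and 3 to 4 in that of the mutant. Among the recomputed folds of single regulators, MET4 fell under 2-fold with median of ratios, at 0.91 in wild type and 0.77 in the mutant, and with upper quartile in the mutant, at 0.91. CBF1 passed it in wild type with equal sums, at 1.02. No fold at 2-fold changed sign. Over all ORFs, a minimum of 30 gave 195 at 2-fold between growing genotypes, against 328, as fewer ORFs were tested. The share of counted ORFs that were higher there was 65.5%, and 51.3% and 55.1% with median of ratios and upper quartile. Between starved genotypes it was 56.2%, with 49.0% under no minimum and 41.6% under equal sums. In starved against growing wild type it was 71.0%, with 47.4%, 81.7% and 59.4% under median of ratios, equal sums and upper quartile. The mutant had 71.8%, with 47.5% and 57.5% under median of ratios and upper quartile. In recounts of the 6 lists, 148 stayed within 1.5 times and 20 did not, from counts of at most 5. Low reads limit MET28 in growing cells. No paired analysis was possible because each group has 1 library.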

Other observations

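The inner kinetochore gene CTF13, which acts with Cbf1 at centromeres, differed between starved genotypes, lower in the mutant, at an RPKM of 18.8 against 50.1 in wild type (log2 fold -1.37). In growing cells it was at 6.79 and 8.12. It was the 1 gene at 2-fold of the 12 in the SCF and kinetochore lists between genotypes. That count is near the share over all ORFs, which was 9.44% in starved and 6.03% in growing cells. CYS3, encoding the last enzyme of cysteine synthesis, had genotype folds of -0.94 growing and 0.68 starved, from levels of 131 and 67.8 in growing wild type and mutant and 85.6 and 138 after starvation. BTT1, which lies 128 bp downstream of MET32, was at 29.1 and 33.0 in growing wild type and mutant and at 25.5 and 12.7 after starvation.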
